A study of Homo sapiens with 27 samples.

Results

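The 8 keratin genes described here were measured across 3 human breast cancer cell lines and 3 siRNA treatments. They are KRT7, KRT8, KRT80, KRT81 and KRT86, which encode type II chains, and KRT18, KRT19 and KRT23, which encode type I chains. They were chosen by name from the simple epithelial and hair-type keratins, and each is listed in all 6 deposited gene tables. They make up 8 of the 32719 genes listed in at least 1 table and of the 17536 listed in all 6. The choice is not complete: the hair keratins KRT32 and KRT83 are also listed in all 6 and are not among the 8. The lines were T47D, SKBR3 and MDA-MB-453, all from breast epithelium. Each was reverse transfected with an siRNA pool against TLE3 (siTLE3), a pool against FOXA1 (siFOXA1) or a control siRNA (siNS), which served as the comparison for both. Total RNA was taken after 48 h and sequenced, with 3 libraries in each of the 9 groups, labelled as biological replicates. The silencing was transient and acted on whole cultures, so a change in RNA per cell and a change in the mix of cells cannot be told apart. TLE3 is a corepressor of the Groucho family with no DNA-binding domain of its own, and FOXA1 is a forkhead factor that opens chromatin at luminal breast genes.

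Keratins build intermediate filaments as obligate pairs of one type I and one type II chain, so a cell needs both kinds. KRT8 and KRT18 are the founding pair of simple, single-layered epithelia such as the luminal layer of the breast, where KRT7 and KRT19 join them. KRT80 is a type II keratin of many epithelia, KRT23 is a little-studied type I keratin, and KRT81 and KRT86 are hair-cortex keratins that some breast cancers also express.

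KRT7, KRT8, KRT80, KRT81, KRT86 and KRT18 lie in the type II cluster region of chromosome 12, and KRT19 and KRT23 in the type I cluster of chromosome 17. In the hg19 coordinates of the deposited tables KRT80 is at chr12:52562780-52585784 (minus strand), KRT7 at chr12:52626304-52645970 (plus), KRT86 at chr12:52643084-52702947 (plus) and KRT81 at chr12:52679697-52685318 (minus). KRT8 is at chr12:53290977-53343738 (minus), KRT18 at chr12:53342655-53346685 (plus), KRT23 at chr17:39078948-39093886 (minus) and KRT19 at chr17:39679869-39684560 (minus). Neighbours overlap: KRT8 and KRT18, on opposite strands, share 1084 bases, all 5622 bases of KRT81 lie within the span of KRT86 on the other strand, and KRT86 and KRT7 share 2887 bases on the same strand. Whether strand was used in counting is not given in the sources used here. The spans above include introns, so how many counted reads these overlaps affect cannot be stated.

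The coding sequences of KRT81 and KRT86 differ at 85 of 1457 aligned bases, an identity of 94.17%, whereas every other pair of the 8 lies between 59.66% and 76.75%. The stretches printed here are shown because they decide how well short reads separate the hair keratins. They are windows of 120 bases of the GENCODE v29 coding sequences, counted from the A of the start codon, and capitals mark bases at which the genes differ. In the first window, coding bases 61 to 180, there is no difference.
KRT81: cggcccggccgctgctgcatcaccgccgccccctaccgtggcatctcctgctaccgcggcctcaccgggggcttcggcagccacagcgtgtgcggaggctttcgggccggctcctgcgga
KRT86: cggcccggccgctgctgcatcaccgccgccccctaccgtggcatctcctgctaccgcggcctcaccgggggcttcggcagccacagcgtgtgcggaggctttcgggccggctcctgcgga
In the second, coding bases 1207 to 1326, there are 19 differences.
KRT81: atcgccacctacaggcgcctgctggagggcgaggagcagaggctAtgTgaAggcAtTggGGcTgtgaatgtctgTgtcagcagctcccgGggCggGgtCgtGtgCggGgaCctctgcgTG
KRT86: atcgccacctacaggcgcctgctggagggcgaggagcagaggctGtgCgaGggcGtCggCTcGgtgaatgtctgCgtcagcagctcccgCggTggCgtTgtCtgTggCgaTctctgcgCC
Of the 1209 windows along the alignment, 498 held no difference. The share of 50-base words that a gene's protein-coding transcripts hold in common with another gene was 43.7% for KRT81, most of it with KRT86 (37.6%), and 37.5% for KRT86. For KRT18 it was 35.9%, of which 16.2% was shared with its neighbour KRT8, and the rest largely with KRT18 pseudogenes. It was 16.2% for KRT8, 10.7% for KRT7, 3.73% for KRT23, 1.64% for KRT19 and 0.411% for KRT80. The counts of KRT81 and KRT86 are therefore uncertain with respect to each other, and their summed reads are given beside their results. Rows named as pseudogenes held little by comparison: the 24 KRT8 rows never exceeded 1.30% of the KRT8 reads and theirs together, and the 21 KRT18 rows never exceeded 0.939%.

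The libraries held 15968223 to 26208135 counted reads. TLE3 fell under siTLE3, with log2 fold changes of -1.80, -1.76 and -2.31 in T47D, SKBR3 and MDA-MB-453, and FOXA1 fell under siFOXA1, with -2.18, -2.24 and -2.48, so the labels and the targeted genes go together. TLE3 also fell under siFOXA1 in MDA-MB-453 (-0.79) but rose under it in T47D (0.22, edgeR adjusted p = 0.0212), and FOXA1 rose under siTLE3 in T47D (0.56). The lines differed in receptor genes: ERBB2 reached 5810 to 8310 CPM in SKBR3 and ESR1 117 to 256 CPM in T47D, where CPM is counts per 1000000 counted reads after scaling all 27 libraries together. The epithelial markers EPCAM, CLDN4, CLDN7, ELF3 and ESRP1 were present in every library, but CDH1, the epithelial cadherin, was at 0.163 to 0.908 CPM in SKBR3. Of the SKBR3 libraries 2 stood apart from their own group. A chi-square per degree of freedom over all genes was 96.9 and 88.3 between siNS library 3 and the other siNS libraries, and 43.6 and 58.3 between siTLE3 library 1 and the other siTLE3 libraries, against 2.77 to 19.7 for every other pair of replicates. SKBR3 results are given with and without these 2 libraries. They were picked by their spread in these same data, and leaving them out removes that spread. The SE and adjusted p without them are therefore likely too small, and those calls are descriptive.

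In the control cultures KRT19 and KRT8 were the most abundant of the 8 transcripts per length in T47D and in MDA-MB-453, while SKBR3 had KRT7 at a level close to KRT8. Levels between genes are compared on FPKM, counts per kilobase of listed gene length and 1000000 counted reads. In T47D siNS libraries KRT19 had 3327, 3297 and 3540 FPKM and KRT8 had 3216, 3001 and 3198 FPKM, ranges that do not overlap but lie close together. Below them came KRT18 at 588 ± 17.9, KRT7 at 99.8 ± 2.5 and KRT80 at 47.5 ± 1.44 FPKM (SD, n = 3), then KRT23 at 6.38 ± 0.431, KRT86 at 0.834 ± 0.123 and KRT81 at 0.403 ± 0.104 FPKM.

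SKBR3 siNS libraries kept KRT19 first, at 3450, 3443 and 5013 FPKM, the last value being the library that stood apart. KRT8 followed with 1691, 1699 and 2343 FPKM and KRT7 with 1508, 1533 and 2151 FPKM. The KRT8 and KRT7 ranges overlap across libraries, but within each library KRT7 was lower, at 0.904 ± 0.0131 times KRT8 (SD, n = 3). The hair keratin KRT81 followed at 708 ± 175 FPKM, above KRT18 at 347 ± 85.9, KRT80 at 58.1 ± 1.53, KRT86 at 5.23 ± 1.15 and KRT23 at 1.56 ± 0.249 FPKM.

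MDA-MB-453 siNS libraries had the lowest levels of most of the group. KRT19 was at 876 ± 28.7, KRT8 at 504 ± 44.9, KRT7 at 350 ± 21.3, KRT18 at 160 ± 11.1 and KRT80 at 6.48 ± 1.32 FPKM (SD, n = 3). Lowest were KRT23 at 0.253 ± 0.0121, KRT81 at 0.214 ± 0.15 and KRT86 at 0.122 ± 0.0798 FPKM. KRT81 overlapped both of the others, while every KRT23 value lay above every KRT86 value. In T47D and MDA-MB-453 KRT81 rested on 3 to 64 reads per library and KRT86 on 2 to 45, against 9765 to 39284 and 167 to 307 in SKBR3. Listed lengths enter these values: the 2862 bases used for KRT8 and the 2088 used for KRT18 exceed their longest GENCODE v29 protein-coding transcripts, of 2437 and 1696 bases. For KRT19 both lengths are 1390 bases. With 2437 bases for KRT8, KRT8 would stand above KRT19 in T47D, so their order there depends on the length used. Ratios of FPKM between keratins also shift with these lengths.

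**Figure D1:**
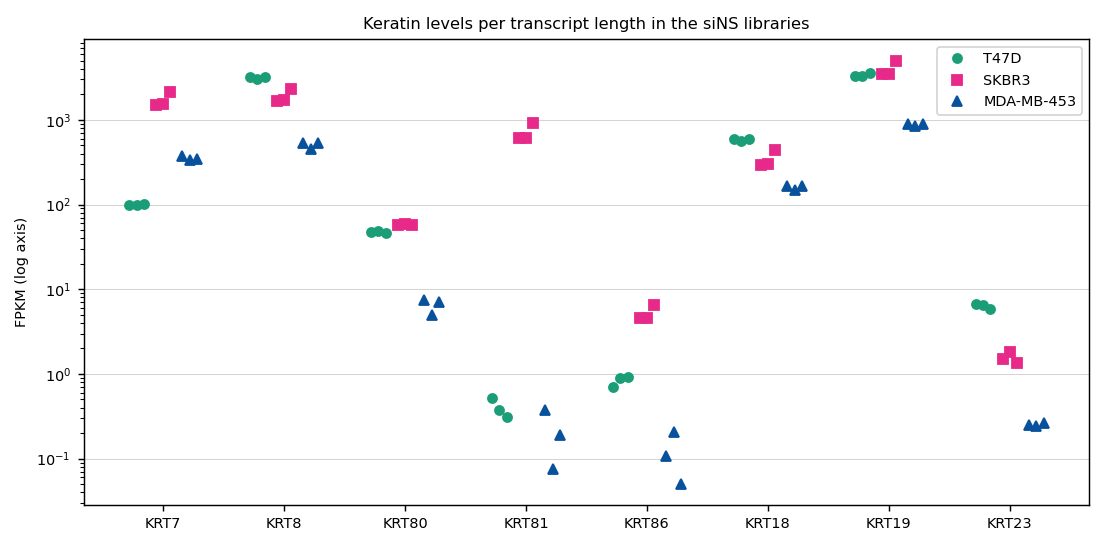
FPKM (log axis) of each keratin in the 3 siNS libraries of each line, 1 symbol per library. KRT81 stands at 604 to 910 FPKM in SKBR3 and below 1 FPKM in T47D and MDA-MB-453. On the listed gene lengths KRT19 is the highest of the 8 in all 3 lines, in T47D only narrowly.

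Comparing lines gene by gene, edgeR's quasi-likelihood test with Benjamini-Hochberg adjustment over all genes called a difference at adjusted p under 0.05. SKBR3 exceeded MDA-MB-453 in all 8 keratins, where 33.5% of all tested genes were called higher in SKBR3 and 32.9% lower. The log2 differences were 11.90 for KRT81, 5.62 for KRT86, 3.41 for KRT80, 2.85 for KRT23, 2.56 for KRT7, 2.43 for KRT19, 2.17 for KRT8 and 1.37 for KRT18, with edgeR adjusted p of at most 0.000215. KRT81 had 1278, 1284 and 2140 CPM in SKBR3 siNS libraries, against 0.664, 0.138 and 0.362 CPM in MDA-MB-453 siNS libraries.

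T47D exceeded MDA-MB-453 in 6 keratins and was lower in KRT7 alone, where 38.9% of genes were called higher and 37.5% lower. KRT23, which had 12.9, 12.6 and 11.2 CPM in T47D siNS libraries, against 0.457, 0.460 and 0.517 CPM in MDA-MB-453 siNS libraries, differed by 4.64 ± 0.21 (SE; edgeR adjusted p = 1.44e-10). KRT7 had 166, 168 and 172 CPM in T47D, against 605, 559 and 583 CPM in MDA-MB-453, a log2 difference of -1.81 ± 0.06 (edgeR adjusted p = 1.09e-11). KRT81 did not pass the test between these lines (log2 difference 0.88 ± 0.52, edgeR adjusted p = 0.140); summed with KRT86 it did, at 1.89 (edgeR adjusted p = 0.000164).

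Between T47D and SKBR3 all 8 keratins were called, 3 higher and 5 lower in T47D, against backgrounds of 34.7% and 32.5%. KRT23 was higher in T47D by 1.81 ± 0.17, and KRT7, KRT86, KRT80 and KRT81 were lower, by log2 differences of -4.36 ± 0.20, -2.89 ± 0.25, -0.52 ± 0.09 and -11.01 ± 0.33 (SE). The calls on KRT8 (0.48 ± 0.17, edgeR adjusted p = 0.0327), KRT18 (0.52 ± 0.19, 0.0388) and KRT19 (-0.47 ± 0.18, 0.0474) were not stable. For KRT8 and KRT18 the call was lost on leaving out any one library other than SKBR3 siNS 3, with edgeR adjusted p up to 0.113 and 0.126, and for KRT19 on leaving out any T47D siNS library (up to 0.125). All 3 calls were also lost with RLE scaling (0.0501 to 0.0547).

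**Figure D2:**
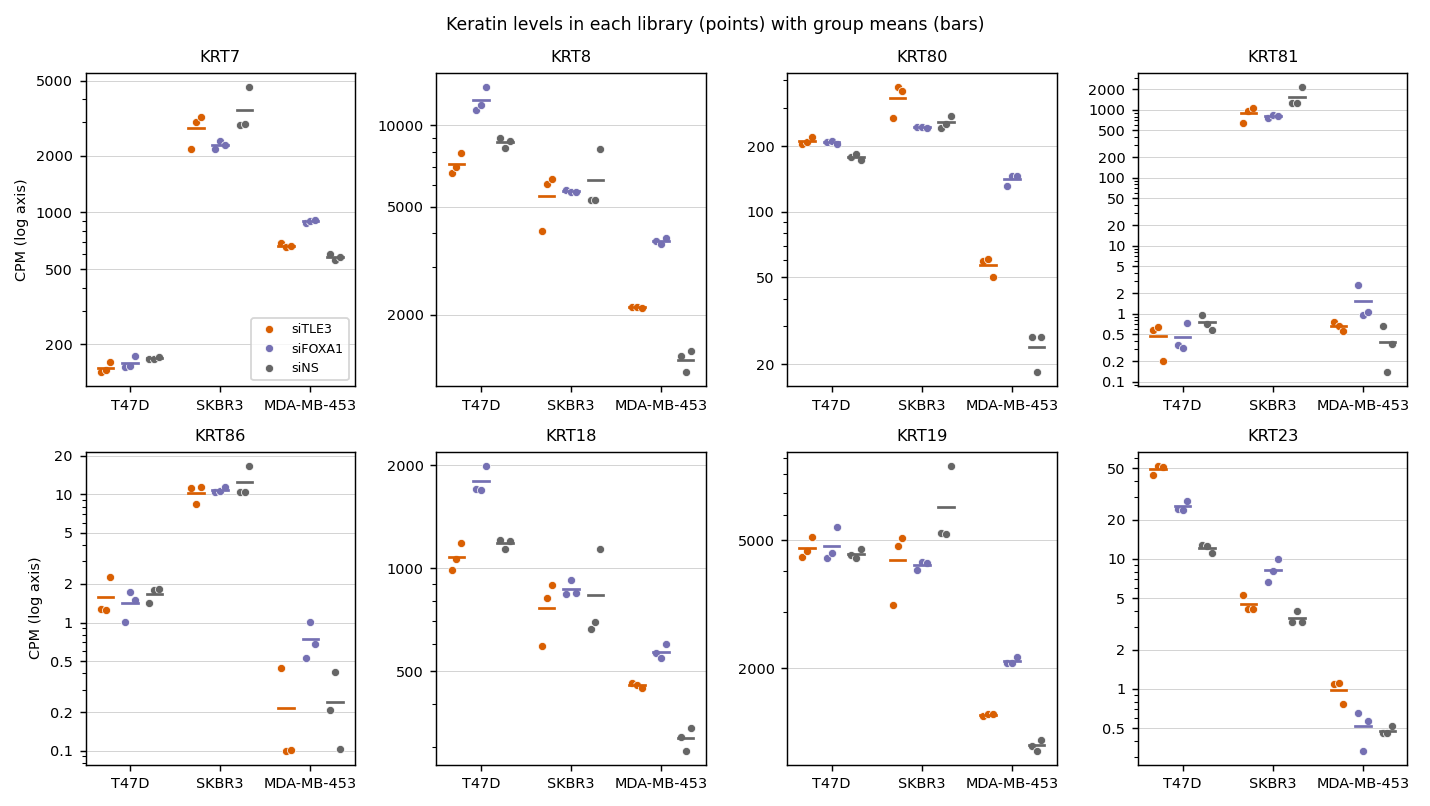
CPM of each keratin in each of the 27 libraries (points, log axis that differs between panels), by line and by siRNA, siTLE3 left, siFOXA1 middle and siNS right; horizontal bars are means of 3 libraries. KRT8 in T47D lies between 6662 and 7898 CPM in siTLE3 libraries and at 11430 CPM or above in siFOXA1 libraries, with siNS libraries in between.

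In MDA-MB-453 every called keratin rose: 7 of 8 under siFOXA1 and 5 of the 7 tested under siTLE3. The 7 called under siFOXA1 include KRT81 and KRT86, which passed the count filter only through their siFOXA1 libraries. KRT81 had 17 to 64 reads per library under siFOXA1 and 3 to 16 under siNS. KRT86 had 12 to 18 and 2 to 9. The KRT86 call, and that on KRT7 under siTLE3, were lost in most fits that left out 1 library. DESeq2 called 6 keratins under siFOXA1 and 5 under siTLE3. Across all genes 23.4% rose and 23.7% fell under siFOXA1, and 15.7% rose and 16.3% fell under siTLE3. The median log2 fold change was 1.17 over the 8 keratins under siFOXA1, against -0.01 over all genes, and 0.63 over the 7 tested under siTLE3, against -0.01 over all genes. These shares describe the keratins beside the genome and were not tested as a set.

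KRT8, the type II chain of the founding pair, had 2144, 2139 and 2119 CPM in MDA-MB-453 siTLE3 libraries, 3737, 3663 and 3827 CPM in siFOXA1 libraries, and 1405, 1229 and 1468 CPM in siNS libraries. The 3 groups do not overlap, siFOXA1 being highest and siNS lowest. KRT8 rose 1.55-fold under siTLE3 (log2 0.63 ± 0.07, edgeR adjusted p = 1.55e-05) and 2.74-fold under siFOXA1 (1.46 ± 0.07, 1.21e-11). Its type I partner KRT18 had 461, 455 and 447 CPM under siTLE3, 564, 546 and 599 CPM under siFOXA1, and 320, 293 and 341 CPM under siNS. KRT18 kept the same order without overlap, with rises of 0.51 ± 0.07 under siTLE3 (edgeR adjusted p = 5.96e-05) and 0.85 ± 0.07 under siFOXA1 (8.49e-09).

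KRT19, the other abundant type I chain, had 1424, 1443 and 1446 CPM in MDA-MB-453 siTLE3 libraries, 2081, 2086 and 2173 CPM in siFOXA1 libraries, and 1146, 1113 and 1204 CPM in siNS libraries. It rose by 0.31 ± 0.06 under siTLE3 (edgeR adjusted p = 0.00157) and by 0.88 ± 0.06 under siFOXA1 (1.93e-09), again without overlap. KRT7, its frequent type II partner in ducts, had 686, 655 and 662 CPM under siTLE3, 884, 904 and 914 CPM under siFOXA1, and 605, 559 and 583 CPM under siNS. The rise under siFOXA1 was 0.63 ± 0.06 (edgeR adjusted p = 1.25e-07). The smaller siTLE3 difference of 0.19 ± 0.06 (edgeR adjusted p = 0.0342) was lost on leaving out any one library but siNS 1, with adjusted p up to 0.105.

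KRT80 had the largest called change of the 8 in this line under both siRNAs. It had 59.4, 60.9 and 50.2 CPM in MDA-MB-453 siTLE3 libraries, 131, 145 and 147 CPM in siFOXA1 libraries, and 26.7, 18.4 and 26.6 CPM in siNS libraries. The groups stand clear of one another. The rise was 2.37-fold under siTLE3 (1.24 ± 0.13, edgeR adjusted p = 5.37e-06) and 5.90-fold under siFOXA1 (2.56 ± 0.11, edgeR adjusted p = 8.24e-13).

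The hair keratins also rose in MDA-MB-453 under siFOXA1, on very few reads. KRT81 had 0.769, 0.651 and 0.557 CPM in siTLE3 libraries, 2.61, 0.952 and 1.07 CPM in siFOXA1 libraries, and 0.664, 0.138 and 0.362 CPM in siNS libraries. All siFOXA1 libraries exceed all siNS libraries, and siFOXA1 library 1 is far above the rest. The log2 fold change under siFOXA1 was 1.99 ± 0.53 (edgeR adjusted p = 0.00477) and the adjusted p was 0.101 without siFOXA1 library 1. KRT86 had 0.440, 0.100 and 0.101 CPM under siTLE3, 0.530, 1.008 and 0.675 CPM under siFOXA1, and 0.208, 0.414 and 0.103 CPM under siNS. Its siFOXA1 difference of 1.55 ± 0.57 (edgeR adjusted p = 0.0322) was lost without siFOXA1 2, siFOXA1 3, siNS 1 or siNS 4, with adjusted p up to 0.158, and also with DESeq2 (0.0815) or no count filter (0.0615), and under siTLE3 it was below the count filter and was not tested. With the reads of both genes summed, the siFOXA1 rise was 1.85 (edgeR adjusted p = 0.000691) and the siTLE3 value was 0.47 (0.463).

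KRT23 did not pass the test in MDA-MB-453. It had 1.1, 1.1 and 0.760 CPM in siTLE3 libraries, 0.652, 0.336 and 0.563 CPM in siFOXA1 libraries, and 0.457, 0.460 and 0.517 CPM in siNS libraries. All siTLE3 libraries lay above all siNS libraries, at a log2 difference of 1.04 ± 0.41 (edgeR adjusted p = 0.0682), and siFOXA1 and siNS libraries overlapped (0.14 ± 0.49, 0.842).

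**Figure D3:**
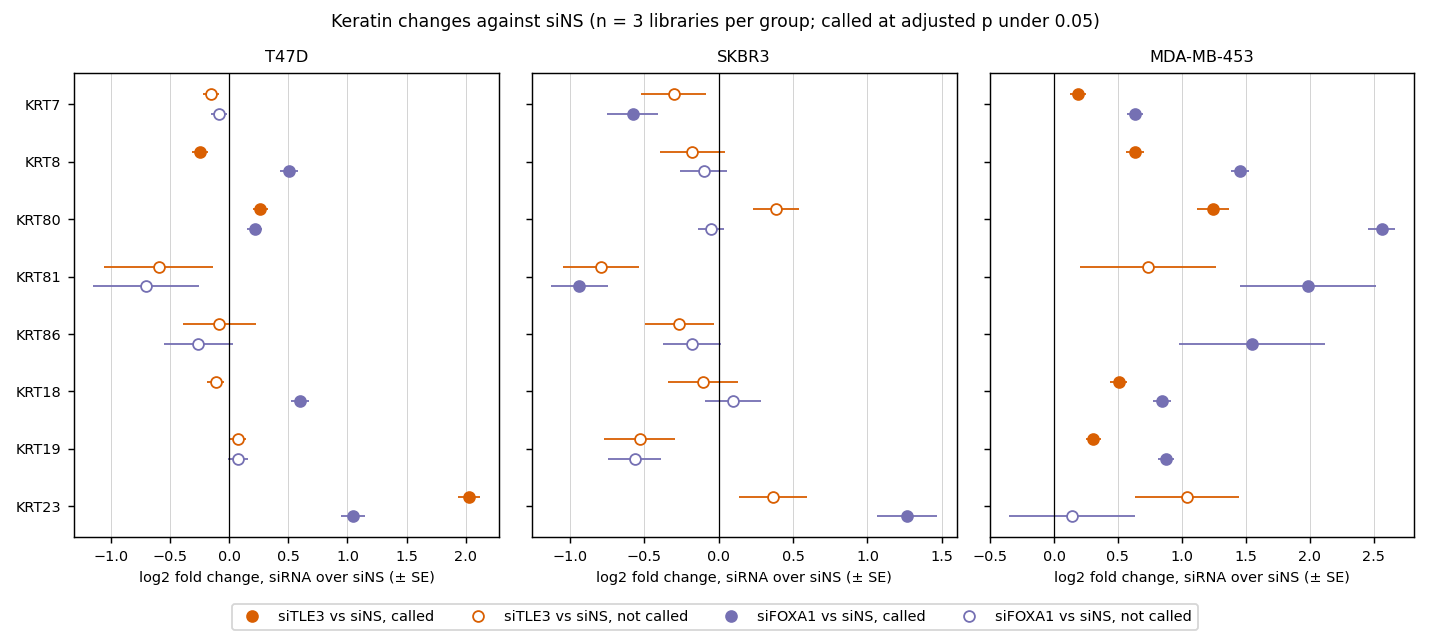
Log2 fold change of each keratin against siNS in each line (points, ± SE, n = 3 libraries per group; filled where edgeR adjusted p was under 0.05), with siTLE3 above siFOXA1 in each row; the horizontal scale differs between panels. In MDA-MB-453 every tested value lies right of 0, in T47D KRT23 reaches 2.03 under siTLE3, and in SKBR3 KRT81 lies at -0.79 and -0.94.

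In T47D KRT8 fell under siTLE3 and rose under siFOXA1, and KRT23 rose with both. Under siFOXA1 KRT8, KRT18, KRT23 and KRT80 rose and none fell, where 26% of all tested genes rose and 26.8% fell. Under siTLE3 KRT23 and KRT80 rose and KRT8 fell, where 26.4% rose and 25.6% fell. The median log2 fold change of the 8 was -0.10 under siTLE3, against 0.03 over all genes, and 0.15 under siFOXA1, against 0.00 over all genes. The siTLE3 counts, 2 higher and 1 lower of 8, are near the shares over all genes.

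KRT8 had 6662, 7043 and 7898 CPM in T47D siTLE3 libraries, 11430, 11870 and 13790 CPM in siFOXA1 libraries, and 8955, 8259 and 8745 CPM in siNS libraries. Every siTLE3 library lies below and every siFOXA1 library above the siNS libraries. KRT8 fell by 0.25 ± 0.07 on the log2 scale under siTLE3 (0.843 times the siNS level, edgeR adjusted p = 0.00782) and rose by 0.51 ± 0.08 under siFOXA1 (1.42-fold, 9.60e-05). KRT18 had 990, 1061 and 1184 CPM under siTLE3, 1703, 1690 and 1990 CPM under siFOXA1, and 1207, 1140 and 1200 CPM under siNS. It rose under siFOXA1 by 0.60 ± 0.08 (edgeR adjusted p = 1.99e-05), while siTLE3 and siNS libraries overlapped (-0.11 ± 0.07, 0.190).

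KRT23 showed the largest change of the 8 in T47D. It had 44.0, 52.1 and 51.2 CPM in siTLE3 libraries, 24.2, 24.0 and 28.0 CPM in siFOXA1 libraries, and 12.9, 12.6 and 11.2 CPM in siNS libraries. The 3 groups are far apart, siTLE3 highest. The rise was 4.07-fold under siTLE3 (2.03 ± 0.09, edgeR adjusted p = 8.50e-10) and 2.07-fold under siFOXA1 (1.05 ± 0.10, edgeR adjusted p = 1.56e-06). The antisense gene AC004231.2, which covers KRT23 on the other strand, never exceeded 0.452 CPM.

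KRT80 had 204, 210 and 220 CPM in T47D siTLE3 libraries, 209, 210 and 205 CPM in siFOXA1 libraries, and 179, 184 and 172 CPM in siNS libraries. Both silenced groups sit just above siNS and overlap each other. The rises were 0.26 ± 0.06 under siTLE3 (edgeR adjusted p = 0.00298) and 0.22 ± 0.06 under siFOXA1 (0.0122), and the siFOXA1 call was lost without siNS 4 (0.0638).

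KRT19, at 4434, 4613 and 5094 CPM in T47D siTLE3 libraries, 4385, 4560 and 5476 CPM in siFOXA1 libraries, and 4500, 4407 and 4701 CPM in siNS libraries, overlapped between groups. Its log2 differences were 0.07 ± 0.07 under siTLE3 (edgeR adjusted p = 0.362) and 0.08 ± 0.08 under siFOXA1 (0.461). KRT7 had 142, 145 and 161 CPM under siTLE3, 152, 154 and 173 CPM under siFOXA1, and 166, 168 and 172 CPM under siNS. All siTLE3 libraries lie below siNS, but the difference of -0.16 ± 0.07 did not pass (edgeR adjusted p = 0.0598), nor did that under siFOXA1 (-0.09 ± 0.07, 0.331). The hair keratins, at 0.201 to 0.971 CPM for KRT81 and 1.005 to 2.26 CPM for KRT86 over the 9 T47D libraries, passed in neither comparison, and their summed reads gave -0.24 under siTLE3 (edgeR adjusted p = 0.407) and -0.38 under siFOXA1 (0.210).

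In SKBR3 the called keratin changes were all under siFOXA1. KRT23 rose and KRT7 and KRT81 fell under siFOXA1, where 10.4% of all tested genes rose and 8.75% fell. Under siTLE3 none of the 8 was called by edgeR, where 3.67% rose and 1.99% fell; 2 were under an unadjusted p of 0.05 and DESeq2 called 1. Without siTLE3 library 1 and siNS library 3, 3 of the 8 rose and 1 fell under siTLE3, where 28.7% of genes were called in either direction, and 3 rose and 3 fell under siFOXA1, where 45.2% were.

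KRT81, which only SKBR3 expressed strongly, had 634, 979 and 1083 CPM in siTLE3 libraries, 748, 836 and 824 CPM in siFOXA1 libraries, and 1278, 1284 and 2140 CPM in siNS libraries. All siNS libraries exceed all silenced libraries. KRT81 fell by 0.94 ± 0.19 under siFOXA1 (0.523 times the siNS level, edgeR adjusted p = 0.0125), a call lost on leaving out any siFOXA1 library (up to 0.0647). The siTLE3 difference was -0.79 ± 0.25 (edgeR adjusted p = 0.112), and passed with DESeq2 (adjusted p = 0.0322) and in an edgeR fit over the 9 libraries of the line (0.0378). Without the libraries that stood apart KRT81 fell by 0.32 ± 0.06 under siTLE3 (edgeR adjusted p = 0.00115) and by 0.67 ± 0.04 under siFOXA1 (2.57e-12). With KRT86 reads added the full-set values were -0.77 (edgeR adjusted p = 0.114) and -0.93 (0.0117).

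KRT86 itself had 11.2, 8.46 and 11.3 CPM in SKBR3 siTLE3 libraries, 10.4, 10.7 and 11.5 CPM in siFOXA1 libraries, and 10.4, 10.5 and 16.7 CPM in siNS libraries. The groups overlap and neither difference passed (-0.26 ± 0.23 under siTLE3, edgeR adjusted p = 0.522, and -0.18 ± 0.19 under siFOXA1, 0.566). For every 100 KRT81 reads there were 1.23 ± 0.478 KRT86 reads under siTLE3, 1.35 ± 0.0635 under siFOXA1 and 0.804 ± 0.0197 under siNS (SD, n = 3). How many of these KRT86 reads came from KRT81 was not tested.

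KRT23 in SKBR3 had 5.26, 4.11 and 4.09 CPM under siTLE3, 6.70, 8.09 and 10.03 CPM under siFOXA1, and 3.25, 3.97 and 3.27 CPM under siNS. It rose 2.41-fold under siFOXA1 (1.27 ± 0.20, edgeR adjusted p = 0.00455), and by 1.20 ± 0.20 without siNS library 3 (2.36e-05). Its siTLE3 difference was 0.37 ± 0.23 (edgeR adjusted p = 0.369) and 0.17 ± 0.25 without the libraries that stood apart (0.670).

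KRT80 had 270, 371 and 357 CPM in SKBR3 siTLE3 libraries, 244, 244 and 242 CPM in siFOXA1 libraries, and 242, 254 and 275 CPM in siNS libraries. Of the siTLE3 libraries the one that stood apart is the low one. The siTLE3 difference was 0.38 ± 0.16 (edgeR adjusted p = 0.188) over all libraries and a rise of 0.55 ± 0.06 without those that stood apart (1.20e-05). Under siFOXA1 the value was -0.05 ± 0.09 (edgeR adjusted p = 0.728).

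The simple keratins of SKBR3 followed the same libraries. KRT8 had 4078, 6070 and 6324 CPM under siTLE3, 5794, 5693 and 5668 CPM under siFOXA1, and 5305, 5299 and 8176 CPM under siNS. The lowest value is siTLE3 library 1 and the highest siNS library 3. Over all libraries KRT8 differed by -0.18 ± 0.22 under siTLE3 (edgeR adjusted p = 0.652) and -0.10 ± 0.16 under siFOXA1 (0.705). Without those 2 libraries the sign turned, to rises of 0.22 ± 0.05 under siTLE3 (edgeR adjusted p = 0.00421) and 0.11 ± 0.03 under siFOXA1 (0.00223).

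KRT18 had 592, 817 and 889 CPM in SKBR3 siTLE3 libraries, 841, 925 and 846 CPM in siFOXA1 libraries, and 665, 694 and 1135 CPM in siNS libraries. Over all libraries the siTLE3 difference was -0.10 ± 0.23 (edgeR adjusted p = 0.811) and the siFOXA1 difference 0.10 ± 0.19 (0.765). Without the libraries that stood apart these became rises of 0.32 ± 0.06 (edgeR adjusted p = 0.00140) and 0.36 ± 0.04 (1.50e-07).

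KRT19 had 3146, 4803 and 5060 CPM in SKBR3 siTLE3 libraries, 4045, 4290 and 4233 CPM in siFOXA1 libraries, and 5257, 5218 and 8496 CPM in siNS libraries. Every silenced library lies below every siNS library, yet neither difference passed edgeR's test over all libraries (-0.53 ± 0.24 under siTLE3, edgeR adjusted p = 0.228, and -0.56 ± 0.18 under siFOXA1, 0.0609). The siFOXA1 difference passed with DESeq2 (adjusted p = 0.0187) and in edgeR without the low-count filter (0.0291). Without those that stood apart KRT19 fell by 0.32 ± 0.03 under siFOXA1 (edgeR adjusted p = 6.15e-09) and was at -0.10 ± 0.05 under siTLE3 (0.181).

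KRT7 in SKBR3 had 2160, 3003 and 3218 CPM under siTLE3, 2164, 2402 and 2278 CPM under siFOXA1, and 2900, 2931 and 4599 CPM under siNS. The siFOXA1 libraries are all below the siNS libraries, and the siTLE3 libraries overlap both. KRT7 fell by 0.58 ± 0.17 under siFOXA1 (edgeR adjusted p = 0.0495), a call lost on leaving out any siFOXA1 library (up to 0.163), and fell by 0.35 ± 0.04 without siNS library 3 (2.14e-08). The siTLE3 value was -0.30 ± 0.22 (edgeR adjusted p = 0.432), and 0.08 ± 0.06 without the libraries that stood apart (0.288).

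**Figure D4:**
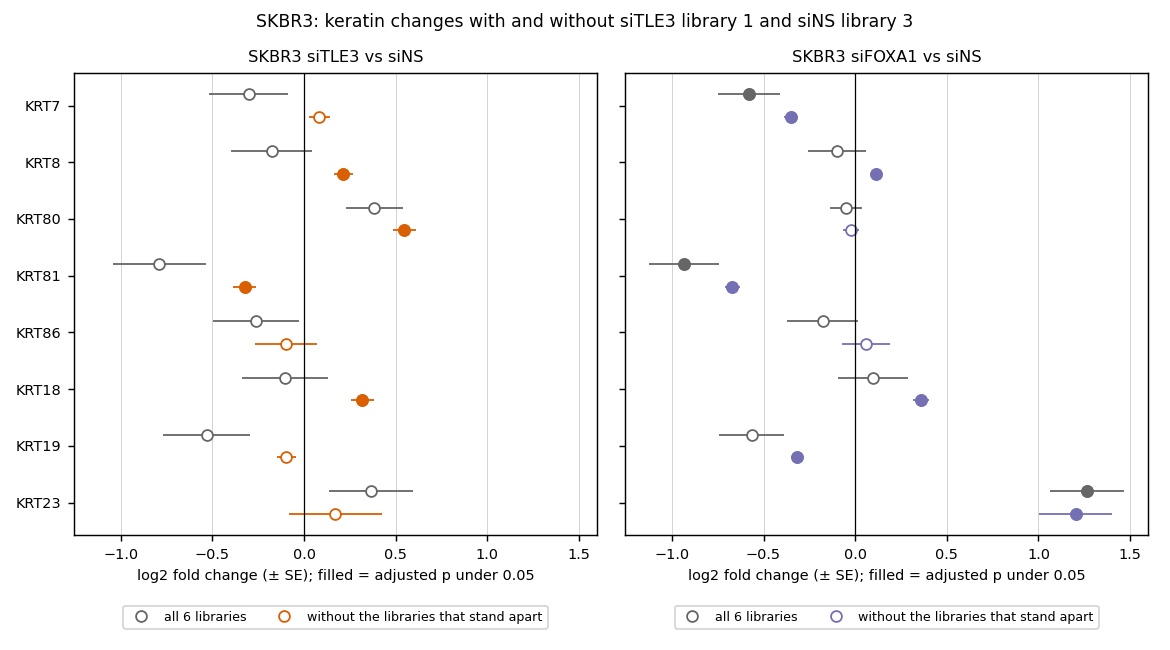
Log2 fold change against siNS in SKBR3 (points, ± SE; filled where edgeR adjusted p was under 0.05), with all 6 libraries of a comparison in grey and without siTLE3 library 1 and siNS library 3 in colour. KRT8 and KRT18 move from the left of 0 to 0.22 and 0.32 under siTLE3, while KRT81 stays left of 0 in both comparisons and KRT23 right of 0.

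Set directly against each other, siTLE3 gave lower keratin levels than siFOXA1 in MDA-MB-453. There 7 of 8 keratins were lower under siTLE3, where 26.1% of genes were lower and 27% higher. The 7 include KRT86, which passed the count filter only through its siFOXA1 libraries, so its direction carries no weight. KRT86 had 12 to 18 reads per library under siFOXA1 and 2 to 12 under siTLE3. DESeq2 called 6 keratins. The log2 differences of siTLE3 over siFOXA1 were -1.30 ± 0.07 for KRT80, -0.81 ± 0.04 for KRT8, -0.55 ± 0.04 for KRT19, -0.43 ± 0.05 for KRT7 and -0.32 ± 0.05 for KRT18, with edgeR adjusted p of at most 8.99e-06. Those of KRT81 (-1.24 ± 0.41, edgeR adjusted p = 0.0144) and KRT86 (-1.61 ± 0.56, 0.0191) were lost without siFOXA1 1 for KRT81 (0.319), and for KRT86 without siTLE3 2, siTLE3 3, siFOXA1 2 or siFOXA1 3 (up to 0.105) or with DESeq2 (0.0516). KRT23 ran the other way without passing, at 0.91 ± 0.42 (edgeR adjusted p = 0.0699).

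In T47D KRT8 and KRT18 were lower under siTLE3 than under siFOXA1, by log2 differences of -0.76 ± 0.10 (edgeR adjusted p = 4.68e-05) and -0.71 ± 0.09 (6.27e-05), and KRT23 was higher by 0.98 ± 0.09 (4.92e-06). The background was 21.8% lower and 22.5% higher, and the other 5 keratins did not pass. In SKBR3 KRT23 was lower under siTLE3 than under siFOXA1, at -0.88 ± 0.20 (edgeR adjusted p = 0.0157), and KRT80 was higher, at 0.46 ± 0.12 (0.0262), where 9.24% of genes were lower and 10.7% higher. The SKBR3 call on KRT23 was lost without siTLE3 2, siFOXA1 2 or siFOXA1 3 (up to 0.0813) and that on KRT80 without any one library but siTLE3 1 (up to 0.114). Without siTLE3 library 1 itself, 6 of the 8 were called and 38.8% of all genes, with KRT80 at 0.58 ± 0.05 (edgeR adjusted p = 1.4e-09) and KRT23 at -1.02 ± 0.20 (1.44e-04).

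Whether the siRNA effects differed between the 3 lines was tested with an interaction term over 18 libraries for each siRNA. For siFOXA1, 7 of 8 keratins differed between lines, where 33.8% of all tested genes did, and for siTLE3 4 of 8 did, where 12.1% of genes did. KRT80 gave the smallest edgeR adjusted p for siFOXA1, 1.82e-10, with log2 fold changes of 0.22, -0.05 and 2.56 in T47D, SKBR3 and MDA-MB-453. KRT8 followed with 3.89e-06, and values of 0.51, -0.10 and 1.46 in the same order of lines. KRT23 was the exception for siFOXA1 (edgeR adjusted p = 0.0773), at 1.05, 1.27 and 0.14, but led for siTLE3 (1.28e-04), at 2.03, 0.37 and 1.04. KRT19 under siTLE3 (edgeR adjusted p = 0.0360) lost its call on leaving out any T47D or MDA-MB-453 library or SKBR3 siTLE3 1 (up to 0.0672). KRT86 under siFOXA1 (edgeR adjusted p = 0.0269) lost it without MDA-MB-453 siFOXA1 2, siNS 1 or siNS 4 (up to 0.107). The same 4 keratins under siTLE3, with KRT7 and KRT18 in addition, were called without the SKBR3 libraries that stood apart, where 26.1% of genes were.

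Shares of a library and ratios within it do not depend on scaling between libraries. Reads of the 8 keratins made up 1.46 ± 0.0896% of counted reads in T47D siTLE3 libraries, 1.98 ± 0.172% in siFOXA1 libraries and 1.53 ± 0.0513% in siNS libraries (SD, n = 3). In SKBR3 the shares were 1.36 ± 0.272% under siTLE3, 1.31 ± 0.0200% under siFOXA1 and 1.64 ± 0.349% under siNS, which overlap for siTLE3 and siNS. In MDA-MB-453 they were 0.498 ± 0.00854% under siTLE3, 0.763 ± 0.0169% under siFOXA1 and 0.364 ± 0.0227% under siNS, without overlap.

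The ratio of summed type II to summed type I FPKM was above siNS under siFOXA1 in every line. In T47D it was 0.675 ± 0.00755 under siTLE3, 1.03 ± 0.0208 under siFOXA1 and 0.826 ± 0.0265 under siNS, with siTLE3 below and siFOXA1 above all siNS libraries. In SKBR3 it was 1.17 ± 0.0265 under siTLE3, 1.1 ± 0.0173 under siFOXA1 and 1.02 ± 0.0208 under siNS, and in MDA-MB-453 0.911 ± 0.0146, 1.04 ± 0.00577 and 0.830 ± 0.0310 for the same treatments. The groups of the last 2 lines also do not overlap, and the SKBR3 libraries that stood apart, at 1.20 (siTLE3 1) and 1.00 (siNS 3), lie with their own groups. The T47D siTLE3 value lies on the other side of siNS from those of SKBR3 and MDA-MB-453. These ratios were not tested.

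The KRT8 to KRT18 ratio of FPKM ranged from 3.06 to 5.82 over the 27 libraries. In MDA-MB-453 it was 3.43 ± 0.0351 under siTLE3, 4.8 ± 0.121 under siFOXA1 and 3.14 ± 0.0755 under siNS, with both silenced groups above siNS. In T47D it was 4.87 ± 0.0361 under siTLE3, 5.03 ± 0.123 under siFOXA1 and 5.34 ± 0.0624 under siNS, lower in both silenced groups. In SKBR3 it was 5.21 ± 0.201 under siTLE3, 4.8 ± 0.28 under siFOXA1 and 5.55 ± 0.286 under siNS, where siFOXA1 lay below all siNS libraries and siTLE3 overlapped siNS. Under siFOXA1 the ratio was thus below siNS in T47D and SKBR3 and above it in MDA-MB-453. KRT81 made up 5.86, 6.12 and 6.40% of the summed FPKM of the 8 in SKBR3 siTLE3 libraries, 5.51, 5.86 and 5.91% in siFOXA1 libraries, and 7.94, 7.98 and 8.33% in siNS libraries. On this within-library scale the libraries that stood apart lie with their groups, and the silenced groups lie below siNS.

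**Figure D5:**
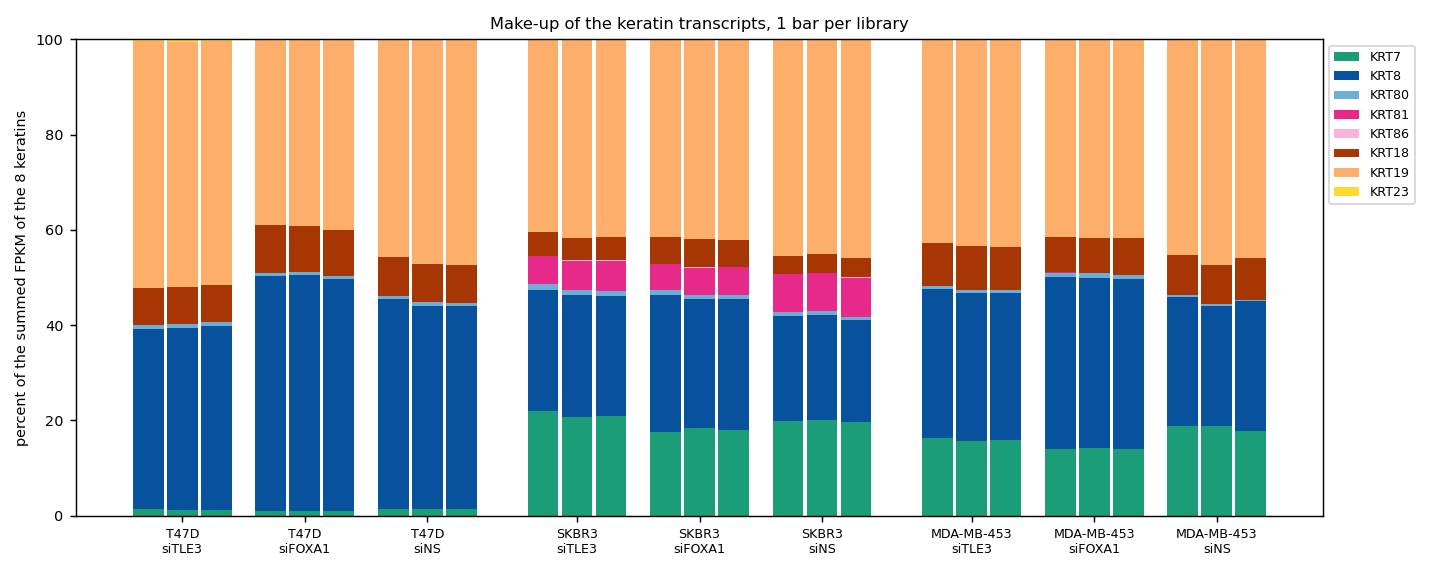
Percent of the summed FPKM of the 8 keratins taken by each, 1 bar per library, grouped by line and siRNA; KRT23 and KRT86 are too small to see in most bars. KRT8 takes 48.8 to 49.4% in T47D siFOXA1 libraries, against 42.7 to 44.1% in siNS libraries, and KRT81 takes 5.51 to 8.33% in SKBR3 libraries.

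The 300-base promoter window of KRT8 is shown because KRT8 rose under siFOXA1 in T47D and MDA-MB-453 and FOXA1 binds forkhead words. It is the entry of the RefSeq promoter table (1 of the 8 genes matched), at chr12:52926420-52926719 on the minus strand of GRCh38.p14, with capitals on the word found.
KRT8 promoter: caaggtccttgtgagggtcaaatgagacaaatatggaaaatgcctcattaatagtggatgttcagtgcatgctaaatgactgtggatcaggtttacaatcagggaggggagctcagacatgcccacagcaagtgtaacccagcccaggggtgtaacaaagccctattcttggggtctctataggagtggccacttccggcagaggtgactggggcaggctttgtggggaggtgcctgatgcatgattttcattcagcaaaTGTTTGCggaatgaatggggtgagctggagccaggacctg
The forkhead core words TGTTTAC and TGTTTGC, neither of which overlaps the other, were searched on both strands, and 1 match, TGTTTGC, lay 10 bases after the annotated start. Of the 35116 promoters of that RefSeq set, 2517 hold at least 1 of these words, or 7.17%. The window belongs to 1 of the 17 GENCODE v29 transcripts of KRT8. Windows at the other starts were not examined, and which start these cells used was not tested. The match is a description of letters, not of binding.

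Other keratins and their partners were counted from fixed lists. Of 16 basal and stratified keratins, those that could be tested rose more often than they fell under siFOXA1. In T47D 5 of 6 tested rose and 1 fell. In SKBR3 5 of 9 rose and 2 fell, and in MDA-MB-453 5 of 6 rose and none fell. A gene near 0 in siNS libraries passes the count filter only where silenced libraries hold more reads. Every listed gene also has a read in a silenced library, so a fall to no reads could not be counted. For genes that low the counts therefore lean toward rises. Of all tested genes 26% rose and 26.8% fell under siFOXA1 in T47D, 10.4% rose and 8.75% fell in SKBR3, and 23.4% rose and 23.7% fell in MDA-MB-453. KRT16, an injury-associated type I keratin, rose by 4.43 ± 0.22, 2.11 ± 0.25 and 7.87 ± 0.28 in those lines (edgeR adjusted p of at most 0.00126). Under siTLE3 4 of 5 rose in T47D, none of 8 was called in SKBR3 and 1 of 4 rose in MDA-MB-453, led by KRT4, a mucosal keratin, at 5.68 ± 0.23 in T47D and 1.69 ± 0.51 in MDA-MB-453. Over all tested genes the shares that rose under siTLE3 were 26.4% in T47D, 3.67% in SKBR3 and 15.7% in MDA-MB-453, and those that fell were 25.6%, 1.99% and 16.3% in the same order. Of 15 other hair keratins 1 to 4 were tested in each comparison with siNS. KRT83, which shares 6.11% of the KRT81 words, fell under both siRNAs in T47D (-1.36 ± 0.33 under siTLE3 and -2.24 ± 0.38 under siFOXA1). KRT83 also fell in SKBR3 (-2.03 ± 0.44 under siTLE3 and -1.60 ± 0.39 under siFOXA1), and lay at 0.219 to 1.91 CPM in these lines. The other way, KRT37 rose under siTLE3 in T47D (1.47 ± 0.47) and KRT32 under siTLE3 in MDA-MB-453 (1.19 ± 0.35). These 2 genes were also low there, at up to 1.05 and 1.62 CPM. All of these genes may also share reads with paralogs.

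Of the 13 genes that tie keratin filaments to desmosomes and other anchors, 9 rose and 2 fell under siFOXA1 in MDA-MB-453, 5 rose and 7 fell in T47D, and 1 rose and 1 fell in SKBR3. The SKBR3 counts lie near the 10.4% and 8.75% of all genes that rose and fell there, while the shares over all genes were 23.4% and 23.7% in MDA-MB-453 and 26% and 26.8% in T47D. DSG2, a desmosomal cadherin, rose by 2.63 ± 0.08 in MDA-MB-453 and 1.4 ± 0.08 in T47D under siFOXA1, and under siTLE3 by 1.33 ± 0.09 in MDA-MB-453, 1.13 ± 0.07 in T47D and 1.28 ± 0.30 in SKBR3. PKP1 and DSP fell under siFOXA1 in T47D (-3.15 ± 0.38 and -0.81 ± 0.10). PKP1 rose under siFOXA1 in SKBR3 (1.40 ± 0.23) and MDA-MB-453 (2.78 ± 0.44). Under siTLE3 4 of the 13 rose and 1 fell in MDA-MB-453, 4 rose and none fell in T47D, and DSG2 alone rose in SKBR3. The T47D count that rose is near the 26.4% over all genes, where 25.6% fell, and the shares in MDA-MB-453 were 15.7% and 16.3% and in SKBR3 3.67% and 1.99%. Of 8 keratin-binding or chaperone genes 2 rose and 2 fell under siTLE3 in T47D, near the shares over all genes. None was called in SKBR3, and 5 rose and none fell in MDA-MB-453. Under siFOXA1 4 rose and 2 fell in T47D, 2 rose and none fell in SKBR3, and 3 rose and 1 fell in MDA-MB-453. FAM83H, which recruits casein kinase to keratin filaments, rose under siTLE3 in T47D (0.81 ± 0.07) and MDA-MB-453 (0.55 ± 0.06). Under siFOXA1 FAM83H rose in SKBR3 (0.50 ± 0.10) and MDA-MB-453 (0.57 ± 0.06). CSNK1A1, of the same list, fell in T47D (-0.242 ± 0.068 under siTLE3 and -0.565 ± 0.065 under siFOXA1). The largest called changes of that list were those of HSPB1 and SFN. HSPB1 rose under siTLE3 in T47D (0.94 ± 0.07) and MDA-MB-453 (0.735 ± 0.073). SFN rose under siFOXA1 in T47D (0.65 ± 0.10), SKBR3 (1.30 ± 0.16) and MDA-MB-453 (1.02 ± 0.07). LMNB1, a nuclear lamin from the list of other intermediate filaments, rose in all 6 comparisons with siNS, by 1.26 ± 0.14 to 2.91 ± 0.11.

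Markers of basal or myoepithelial cells were higher as a sum under siFOXA1 than under siNS in each line, but different genes lay behind the sums. ACTA2 reached 21.8 CPM in T47D and at most 0.709 CPM in MDA-MB-453, where TP63 reached 9.37 CPM. The summed level of TP63, ACTA2, MYH11 and CNN1 was 8.46 to 11.6 CPM in T47D siTLE3 libraries, 27 to 28.4 CPM in siFOXA1 libraries and 7.62 to 8.31 CPM in siNS libraries. In MDA-MB-453 it was 4.26 to 4.94, 9.73 to 12 and 2.64 to 5.35 CPM, and in SKBR3 6.49 to 9.69, 8.45 to 9.96 and 5.22 to 7.57 CPM for the same treatments. Under siFOXA1 3 of 4 rose and 1 fell in T47D, where 26% of all tested genes rose and 26.8% fell. In SKBR3 2 of 3 tested rose and none fell (10.4% and 8.75% of all genes). In MDA-MB-453 1 of 2 tested rose and none fell (23.4% and 23.7%). CNN1, 1 of the 3 that rose in T47D, never exceeded 1.13 CPM there. It was at 0 in 2 of the 9 T47D libraries and in 5 of the 6 MDA-MB-453 libraries that list it. Summed fibroblast markers, mostly COL1A1, were at 73.3 to 78.1 CPM under siTLE3, 46.3 to 61.6 CPM under siFOXA1 and 111 to 128 CPM under siNS in T47D. Other members went against this sum. In T47D COL1A1 fell under siTLE3 (-0.825 ± 0.075), while LUM (2.09 ± 0.17) and COL3A1 (0.93 ± 0.33) rose. Under siFOXA1 COL1A1 fell (-1.31 ± 0.09) and COL1A2 rose (2.30 ± 0.73) there. LUM, COL3A1 and COL1A2 reached at most 8.48, 2.81 and 4.56 CPM in T47D. In MDA-MB-453 they were at 109 to 124 CPM under siTLE3, 51.0 to 58.4 CPM under siFOXA1 and 154 to 174 CPM under siNS, and in SKBR3 at 19.1 to 24.2, 16.2 to 22.7 and 23.5 to 35.4 CPM for the same treatments. The 6 epithelial markers summed to 1720 to 1850 CPM under siTLE3, 1900 to 1940 CPM under siFOXA1 and 2040 to 2090 CPM under siNS in T47D. Both silenced sums lay below siNS, with CDH1, at 806 to 1230 CPM, the largest part. Under siTLE3 2 of the 6 rose and 2 fell there, near the 26.4% and 25.6% over all genes. ESRP1 (0.69 ± 0.06) and ELF3 (0.66 ± 0.08) rose and EPCAM fell (-0.58 ± 0.06). Under siFOXA1 none of the 6 rose and 3 fell. In MDA-MB-453 they summed to 1170 to 1220, 1090 to 1140 and 1030 to 1100 CPM, and in SKBR3 to 1060 to 1300, 1150 to 1230 and 1150 to 1480 CPM for the same treatments. PTPRC, the pan-leukocyte marker, never exceeded 0.203 CPM. The part of these markers in the keratin results was not tested.

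For the keratins called in at least 3 of the 6 comparisons with siNS, the protein-coding genes with the most similar 6 log2 fold changes were listed, by root mean square difference over 10877 genes. The nearest were TMEM99 to KRT7 (0.100), OSBPL9 to KRT8 (0.202), TFAP2A to KRT18 (0.139), RAVER1 to KRT23 (0.358) and ALPK3 to KRT80 (0.290). Those of KRT23 and KRT80 lie further off than those of KRT7 and KRT18. KRT19 and KRT81, called in 2 of 6, and KRT86, called in 1, were below the rule's minimum.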

How the data were processed

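RNA-seq of 27 libraries (9 groups of 3) was analysed from 6 deposited tables. The tools named in the submitters' processing notes are STAR (2.5), HTSeq (0.6.1) and DESeq2, on build hg19. The authors deposited read counts per gene and library, their own log2 fold changes and p-values, which were not used here, and gene lengths. Another 72 columns of normalised per-library values were not used. Strandedness is not given in the sources used here. Some column numbers in T47D and MDA-MB-453 differ from the labels' replicate numbers, so those columns were matched to a group only, and library numbers in the text are those of the columns.

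From the counts, CPM was computed with TMM factors over all 27 libraries, and FPKM with the listed gene lengths. Each comparison was fitted on its own 6 libraries with edgeR 4.0.16 (R 4.3.3) after its default low-count filter, using the quasi-likelihood test and Benjamini-Hochberg adjustment over all genes tested, with a threshold of 0.05. SE is the log2 fold change divided by the root of its F statistic. The interaction fits used 18 libraries. Alternatives were DESeq2 1.42.0, RLE scaling, no filter, a joint fit, summed paralogs and pseudogenes, each library left out and a replicate block. Fits were also run without the SKBR3 libraries that stood apart, which were picked by their spread in these data. For the interaction fits this setting was itself chosen after seeing the data. On simulated counts with 200 genes changed 2-fold, 193 were recovered for T47D siFOXA1 against siNS (15553 genes) and 100 for SKBR3 siTLE3 against siNS (14382 genes). Among the unchanged genes 13 and 4 were called. The changed genes were drawn only from genes above a minimum read sum. Recovery of genes with few reads, such as KRT81 and KRT86 in T47D, was therefore not measured. Depth was 15968223 to 26208135 reads; reads without molecular identifiers are not independent molecules. Coding windows and shared words come from GENCODE v29 (GRCh38), the promoter from RefSeq.

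The 8 keratins, the gene lists and the tests were chosen with earlier results of these data known. All 8 keratins were examined in every comparison. Genes of other lists given with a fold change were taken from the largest called changes, up to 3 a list and comparison, and not all of these are named.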

Additional observations from a re-analysis of the deposited data

Results flagged for a closer look

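The response to siFOXA1 differed between the 3 lines, by an interaction term in edgeR's quasi-likelihood test with adjustment over all genes, for KRT7 (adjusted p = 6.13e-05), KRT8 (3.89e-06), KRT18 (0.0126), KRT19 (2.16e-05), KRT80 (1.82e-10), KRT81 (7.82e-04) and KRT86 (0.0269). KRT7 was at -0.09 in T47D, -0.58 in SKBR3 and 0.63 in MDA-MB-453 on the log2 scale, KRT18 at 0.60, 0.10 and 0.85, and KRT19 at 0.08, -0.56 and 0.88 in that order of lines. KRT81 was at -0.70, -0.94 and 1.99, and KRT86 at -0.26, -0.18 and 1.55, with few reads of either in T47D and MDA-MB-453, and the KRT86 call was lost on leaving out any 1 of 3 MDA-MB-453 libraries (edgeR adjusted p up to 0.107).

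The response to siTLE3 differed between lines, by the same edgeR test, for KRT8 (adjusted p = 0.0163), KRT19 (0.0360), KRT23 (1.28e-04) and KRT80 (0.00296). KRT8 was at -0.25 in T47D, -0.18 in SKBR3 and 0.63 in MDA-MB-453, KRT19 at 0.07, -0.53 and 0.31, and KRT80 at 0.26, 0.38 and 1.24. The KRT19 call was lost on leaving out any 1 of 13 of the 18 libraries (edgeR adjusted p up to 0.0672). Without SKBR3 siTLE3 library 1 and siNS library 3 the edgeR adjusted p for siTLE3 was 3.17e-06 for KRT8, 0.00644 for KRT19, 3.18e-06 for KRT23 and 3.45e-05 for KRT80.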

How the results depend on the processing

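Over the 12 comparisons and the tests between lines, 166 of 187 recounts of the called keratins under an alternative stayed within 1.5 times the count reported. In SKBR3 siTLE3 against siNS, where edgeR called 0, DESeq2 called 1 (KRT81, adjusted p = 0.0322), a fit over the 9 libraries of the line 1 (KRT81, 0.0378), and the replicate block 2 (KRT19 at -0.525, edgeR adjusted p = 0.00434, and KRT81 at -0.785, 2.7e-05). In SKBR3 siFOXA1 against siNS the block left KRT7 at an edgeR adjusted p of 0.0561. Without the libraries that stood apart 4 were called in SKBR3 siTLE3 against siNS, 6 in SKBR3 siFOXA1 against siNS and 6 in SKBR3 siTLE3 against siFOXA1, and with RLE scaling 5 between T47D and SKBR3 siNS libraries. Signs turned without those libraries for KRT7 (0.084), KRT8 (0.215) and KRT18 (0.318) in SKBR3 siTLE3 against siNS, for KRT8 (0.112) and KRT86 (0.059) in siFOXA1 against siNS, and for KRT8 (0.116) in siTLE3 against siFOXA1, and with paralogs summed for KRT86 (0.164) in the last. The cause was not tested.

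Leaving out each library in turn gave 3 to 5 called keratins in T47D siTLE3 against siNS, 1 to 6 in SKBR3 siFOXA1 against siNS, 0 to 6 in SKBR3 siTLE3 against siFOXA1 and 5 to 8 between T47D and SKBR3 siNS libraries. Values that changed sign ranged from -0.413 to 0.063 (KRT86, T47D siTLE3 against siNS), -0.008 to 0.148 (KRT19, T47D siFOXA1 against siNS), -0.271 to 0.046 (KRT8) and -0.221 to 0.169 (KRT18) in SKBR3 siTLE3 against siNS, and -0.097 to 0.362 (KRT23, MDA-MB-453 siFOXA1 against siNS). In SKBR3 siFOXA1 against siNS they were -0.201 to 0.112 (KRT8), -0.035 to 0.36 (KRT18) and -0.29 to 0.059 (KRT86). In siTLE3 against siFOXA1 they were -0.177 to 0.562 (KRT81), -0.139 to 0.35 (KRT86) and -0.078 to 0.091 (KRT19) in T47D, and -0.168 to 0.116 (KRT8), -0.072 to 0.235 (KRT19) and -0.145 to 0.068 (KRT86) in SKBR3. No call reported was reversed in sign by any alternative run.

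Over all genes, SKBR3 siTLE3 against siNS gave 814 calls, 3698 with the replicate block and 4161 without the libraries that stood apart. Without those libraries SKBR3 siFOXA1 against siNS gave 6675 calls in place of 2746, SKBR3 siTLE3 against siFOXA1 5732 in place of 2836, and the siTLE3 test between lines 4361 in place of 1983.

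The replicate block could be fitted where the columns carry the same numbers in both groups, in the 3 SKBR3 comparisons and in MDA-MB-453 siTLE3 against siFOXA1. Same-numbered libraries of SKBR3 siTLE3 and siNS deviated together in 2 of 3 pairs (r of 0.398, -0.0696 and 0.513), so the numbers were not taken to pair the samples. No paired analysis was possible for the other comparisons because their columns and labels do not carry the same numbers or the groups are different lines.

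FPKM in place of CPM, computed from the counts and listed lengths, left every called difference in mean level with its sign. Depth limits KRT81 and KRT86 in T47D and MDA-MB-453, and KRT23 in MDA-MB-453, most, where a few reads set the values.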
